A study of Mus musculus with 12 samples.

Results

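The ovaries of mice that lacked dietary vitamin D around puberty were compared with the ovaries of mice on a normal diet. These are 8 of the 12 ovary samples of the series, 4 peripubertal (P1 to P4) and 4 control (C1 to C4), taken by their labelled diet. All donors were females of the inbred mouse strain C57BL/6J and were 2 months old at collection. The peripubertal mice ate a vitamin D-deficient (VD-deficient) diet at the peripubertal stage only, and the control mice ate the normal diet throughout; the length of the deficient period and the diet's vitamin D content are not given in the sources used here. The other 4 samples came from mice deprived in early life and served here only as a reference. Each sample was 1 female, a biological replicate by the stated design, and the ovary was minced whole, so that fewer cells of a type and less RNA per cell cannot be told apart.

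Vitamin D is turned by 2 hydroxylation steps, the last of them by the enzyme Cyp27b1, into a hormone that binds the vitamin D receptor, Vdr. The receptor pairs with a retinoid X receptor on DNA, and one of its classic targets is Cyp24a1, the enzyme that inactivates the hormone. In the ovary, granulosa cells around each oocyte express the receptor, and the hormone is known to act on steroid synthesis and on anti-Müllerian hormone signalling.

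RNA was measured on 2-colour Agilent arrays, on which each spot holds 1 kind of 60-base DNA probe and its brightness, the intensity, reports the RNA that binds it. Every array held 2 samples, both from the same group, with odd replicates labelled with the dye Cy3 and even ones with Cy5. The median spot had an intensity of 147 to 331 units in the 8 samples, 6.85 to 9.45 times its local background, and the scanner software's own test put 58.3% to 60.9% of probes well above background. Values below are normalized log2 intensities, on which a difference of 1 is a doubling, and differences are peripubertal minus control with the standard error (SE) of the model. Oocyte genes (Gdf9, Zp3, Bmp15) and granulosa genes (Foxl2, Amh, Inha) were measured in both groups, as the labelled tissue requires.

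The arrangement of the samples limits every result. All peripubertal arrays were on 1 slide and those of the other groups on a different one, so diet and slide cannot be told apart. The names of the control and early-life samples are also in doubt: in the deposited value table all 8 columns of these groups matched scanner channels of the opposite group, with Pearson's r across probes of at least 0.999767. The 4 peripubertal columns of that table matched no scanner channel (r at most 0.897) and were not used. The difference from the early-life arrays is therefore also given for the genes with a symbol that passed, where both groups were above background, and for the lists whose median differed most; both differences use the same peripubertal samples.

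Of 18559 genes and transcripts tested, 53 (0.286%) differed between peripubertal and control ovaries at an adjusted p under 0.05 in limma with Benjamini-Hochberg adjustment. In the peripubertal group 22 (0.119%) were higher and 31 (0.167%) lower. The measured peripubertal values lay above all measured control values in 1106 genes (5.96%) and under all of them in 987 (5.32%), and the 53 were among these, some by only 2 or 3 values in a group. The smallest adjusted p was 0.0124, and 2112 genes had an unadjusted p under 0.05. Of the 53, 37 carry a gene symbol, 14 higher and 23 lower, and 16 are clones, predicted loci or transcripts without one. A probe was tested if it was above background in at least 4 of the 12 samples, and 8 of the 22 rises and 8 of the 31 falls met this only through the group in which they are high; such a probe had to differ, and its call is a description. The count rests on few arrays: with 1 sample left out it fell to between 5 (without C1) and 30 (without C2), and it was 0 when only these 8 samples were normalized and fitted.

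**Figure D1:**
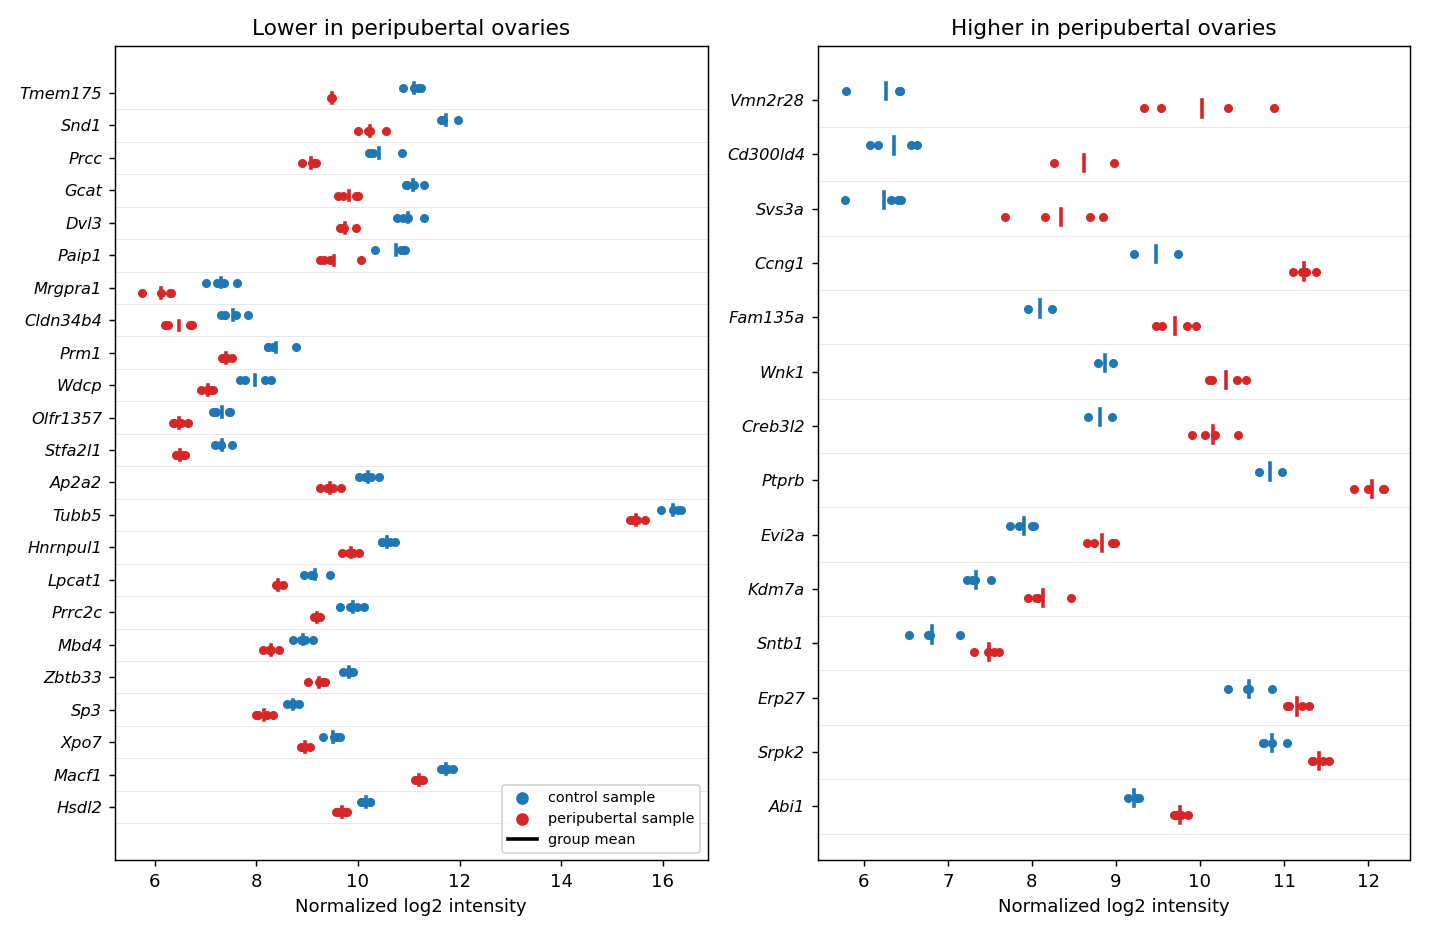
Normalized log2 intensity (x axis) of the 37 genes with a symbol that passed the threshold, lower in peripubertal ovaries at left and higher at right; points are single samples, blue for control and red for peripubertal, and bars are group means. Peripubertal and control points do not overlap in any of them, Vmn2r28 has the widest gap, and genes such as Tmem175 and Ccng1 show only 2 points in a group because spots set aside as outliers have no value.

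Probes of 5 of the genes described below are shown first, 5′ to 3′ on the strand given with their mm9 positions, to show which piece of each transcript was measured. In Dvl3 (chr16:20531470-20531529, plus strand), Mbd4 (chr6:115792515-115792574, minus strand) and Paip1 (chr13:120239562-120240599, plus strand) capitals mark whole codons of the 1 reading frame that has no stop codon. The Paip1 probe is 60 bases over a span of 1038, so it crosses a gap in the genome. The Snd1 probe (chr6:28838378-28838437, plus strand), the probe with the smallest p, and the Vmn2r28 probe (chr7:5432165-5432224, minus strand), the one with the largest rise, are shown by their first 30 bases, without capitals. Frames are not marked in them, though the Snd1 probe has 1 frame without a stop codon and the Vmn2r28 probe 2.
Dvl3: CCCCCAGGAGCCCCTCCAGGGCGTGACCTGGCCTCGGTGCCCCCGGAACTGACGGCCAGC
Mbd4: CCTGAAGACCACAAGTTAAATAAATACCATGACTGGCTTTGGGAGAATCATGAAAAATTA
Paip1: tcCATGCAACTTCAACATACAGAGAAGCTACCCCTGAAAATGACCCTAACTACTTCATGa
Snd1: ctggttgagggagtatagattgggtctagc
Vmn2r28: ctttcaaatgagaaattggtacatacctac
The Dvl3 probe holds 76.7% G and C, against 35% in the Mbd4 and Vmn2r28 probes and 41.7% in the Paip1 probe.

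Among genes above background in all 8 samples, 20 were lower in peripubertal ovaries, and several of them handle RNA or its translation. Snd1 encodes a nuclease-domain protein of the RNA-induced silencing complex that also assists transcription. Its log2 level was 11.97, 11.63, 11.66 and 11.68 in C1 to C4 and 10.55, 10.23, 10.19 and 10.002 in P1 to P4. Every peripubertal sample lay over 1 log2 unit under every control, and the fitted difference was -1.49 (SE 0.14, adjusted p = 0.0124). Against the early-life arrays it was -1.77 (adjusted p = 0.00125), and it stayed between -1.77 and -1.43 under all 26 alternatives, 3 of which left it short of the threshold. Prcc, a nuclear protein linked to splicing, stood at 10.87, 10.30, 10.21 and 10.25 in controls and at 9.17, 9.15, 9.10 and 8.91 in peripubertal ovaries. C1 was the highest control, and the difference was -1.33 (SE 0.19, adjusted p = 0.0337), beside -0.84 against the early-life arrays (adjusted p = 0.0474). Paip1, which joins the poly(A)-binding protein to the translation machinery, fell by 1.23 (SE 0.19, adjusted p = 0.0418), from 10.34, 10.93, 10.85 and 10.89 to 9.34, 10.07, 9.25 and 9.45. Its groups are separated by the gap between C1 and P2 alone, and it passed under 8 of 26 alternatives, 1 of them among the 8 that leave out a sample. Paip1 differed by -1.43 from the early-life arrays (adjusted p = 0.0237). Its other measured probe, described below, differed by only 0.03 (SE 0.10) between peripubertal and control ovaries.

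Hnrnpul1, an RNA-binding protein of the heterogeneous ribonucleoprotein family, fell by 0.72 (SE 0.10, adjusted p = 0.0299), beside a difference of -0.77 from the early-life arrays. Its other measured probe differed by -0.19 (SE 0.12) from controls. A list of 17 partners in RNA processing and translation, chosen with these results known, had 3 of 17 members lower and 0 higher at the threshold, namely Snd1, Prcc and Paip1. Over all genes tested, 0.167% were lower at the threshold. The list's median difference was -0.01, against 0.01 over all genes tested, so most of its members did not share the fall. The translation scaffold Eif4g1 was 0.82 lower without passing (adjusted p = 0.0767), with 2 peripubertal values. The cap-binding protein Eif4e (0.12) and the poly(A)-binding protein Pabpc1 (0.02) differed little, and Srsf1, a splicing factor, was 0.17 higher.

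Metabolism, WNT signalling and DNA repair each had a member with a fall that passed. Gcat, the mitochondrial enzyme that turns a threonine product into glycine, had values of 11.30, 10.97, 10.95 and 11.11 in controls and 9.60, 9.71, 9.96 and 9.995 in peripubertal ovaries. The difference was -1.27 (SE 0.13, adjusted p = 0.0161), with a gap of almost 1 log2 unit between the groups. Dvl3, a dishevelled protein that carries WNT signals on from Frizzled receptors, went from 11.30, 10.98, 10.76 and 10.88 to 9.66, 9.71, 9.96 and 9.65. The difference was -1.23 (SE 0.14, adjusted p = 0.0161). Mbd4, a glycosylase that removes thymine mispaired at methylated CpG sites, stood at 9.12, 8.87, 8.95 and 8.72 in controls and at 8.45, 8.24, 8.29 and 8.13 in peripubertal ovaries, a difference of -0.64 (SE 0.08, adjusted p = 0.0221). Against the early-life arrays these 3 genes differed by -0.90, -0.97 and -0.46, each at an adjusted p under 0.05. Of the 53 genes, Snd1, Gcat, Dvl3 and Vmn2r28 (described below) passed with each of the 8 samples left out in turn. Vmn2r28 was tested only through the peripubertal samples in which it is high, so its passing is a description.

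The glycine, serine and one-carbon list held 19 measured genes, of which 1 fell (Gcat) and 0 rose, against falls in 0.167% of all genes. Its median difference was -0.26. This list was chosen with earlier results of these data known, so its shares are a description. In 5 of the 19 (26.3%), Gcat among them, the peripubertal values lay under all controls, against 5.32% of all genes. Next to Gcat these were Cth (-0.72, adjusted p = 0.271) and Cbs (-1.57, adjusted p = 0.466), which carry sulphur from homocysteine to cysteine, Ahcy (-0.47, adjusted p = 0.297), which forms homocysteine, and Psat1 (-0.38, adjusted p = 0.556), an enzyme of serine synthesis. Cbs differed by -3.45 from the early-life arrays, in which oviduct genes, described below, were also higher. In the WNT list, 1 of 25 measured genes fell and 0 rose, against falls in 0.167% of all genes, with a median of -0.03. The other dishevelled genes diverged: Dvl2 was 0.44 lower (adjusted p = 0.166) and Dvl1 differed by less than 0.01, while the co-receptor Lrp5 was 0.38 higher (adjusted p = 0.195).

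The remaining falls of genes with a symbol above background in all samples were smaller, from 0.49 to 0.99 on the log2 scale, apart from Tmem175. Tubb5, a beta-tubulin and a subunit of microtubules, went from 16.36, 16.21, 16.31 and 15.96 to 15.64, 15.49, 15.35 and 15.42 and fell by 0.74 (SE 0.11, adjusted p = 0.0361). Macf1, a giant linker of microtubules and actin, fell by 0.53, and Ap2a2, a subunit of the clathrin adaptor AP-2, fell by 0.75. Lpcat1, which rebuilds phosphatidylcholine, fell by 0.71, and Hsdl2, a peroxisomal dehydrogenase-like protein, by 0.49. Zbtb33 (Kaiso, a repressor that binds methylated DNA) fell by 0.59, the transcription factor Sp3 by 0.58, Prrc2c by 0.71 and the nuclear transport receptor Xpo7 by 0.56. Prm1, the protamine that packs sperm DNA, fell by 0.99 from a low level of 8.23 to 8.78 in controls. These genes differed from the early-life arrays by -0.78 (Tubb5), -0.55 (Macf1), -0.49 (Ap2a2), -0.57 (Lpcat1), -0.32 (Hsdl2), -0.43 (Zbtb33), -0.49 (Sp3), -1.01 (Prrc2c) and -0.68 (Prm1), and Ap2a2 and Hsdl2 did not pass there. Xpo7 differed by 0.06 (SE 0.09) from the early-life arrays, less than its SE, so its fall was not seen there and no direction is read. Tmem175, a lysosomal ion channel, fell by 1.62 (-1.54 against 2 early-life values), but from P3 and P4 alone: the scanner software had set aside its spots in P1 and P2, and with those kept P1 and P2 were 11.04 and 10.89, within the control range of 10.89 to 11.24.

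Of the 22 rises, 12 were of genes above background in all 8 samples. Evi2a, a membrane protein gene known as a retroviral integration site, went from 7.74, 8.01, 8.03 and 7.85 to 8.73, 8.66, 8.96 and 8.99. Its difference was 0.93 (SE 0.12, adjusted p = 0.0263), and against the early-life arrays it was 1.59 (adjusted p = 0.00125). Srpk2, a kinase of splicing factors, rose by 0.56 (SE 0.09, adjusted p = 0.0447), from between 10.75 and 11.04 to between 11.33 and 11.53. Kdm7a, a histone demethylase, rose by 0.80 (SE 0.13, adjusted p = 0.0488). Abi1, a subunit of the complex that drives actin branching, rose by 0.54 (SE 0.08, adjusted p = 0.0479), and Erp27, a chaperone-binding protein of the endoplasmic reticulum, by 0.57. Sntb1, an adaptor of the dystrophin complex, rose by 0.68 (SE 0.11, adjusted p = 0.0426), from 6.54, 6.79, 6.76 and 7.14 to 7.31, 7.61, 7.48 and 7.55, and only 1 control was above background. Against the early-life arrays Srpk2 and Kdm7a differed by 0.45 and 0.60, both past the threshold, and Abi1, Erp27 and Sntb1 by 0.26, 0.20 and 0.06, none past it.

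In 5 of the rises the controls kept only 2 values each, because their other spots had been set aside as outliers. Ccng1, cyclin G1, a classic p53 target, rose by 1.74 (SE 0.18, adjusted p = 0.0418), from 9.73 and 9.21 in C1 and C3 to 11.26, 11.21, 11.11 and 11.38. With the spots of C2 and C4 kept, these read 10.13 and 9.59, still under every peripubertal value. Fam135a rose by 1.51, and Wnk1, a kinase that controls ion cotransporters, by 1.47. Creb3l2, a transcription factor released from the endoplasmic reticulum, rose by 1.26. These rises, like that of Ccng1, were from C1 and C3, both labelled with Cy3, so no Cy5 control had a value. With all spots kept, the group means of Fam135a, Wnk1 and Creb3l2 differed by 1.24, 1.12 and 1.09. In that setting 7 rises passed over all genes, against 22 in the main fit. Ptprb, a receptor phosphatase of endothelial cells, rose by 1.21 from C1 and C2 at 10.70 and 10.98; with C3 and C4 kept these were 11.35 and 11.55 and the difference was 0.90 (adjusted p = 0.0886). Against the early-life arrays the differences were 0.93 for Ccng1, 0.68 for Ptprb, 0.19 for Wnk1, -0.03 for Fam135a and -0.50 for Creb3l2. Only that of Ptprb passed the threshold, and Fam135a and Creb3l2 were not higher there. Among 20 genes of p53 response and apoptosis, 1 rose (Ccng1) and 0 fell, with a median of 0.10; Cdkn1a was 0.63 higher (adjusted p = 0.559) and Mdm2 0.10 higher (adjusted p = 0.780). Among 11 endothelial genes, 1 rose (Ptprb) and 0 fell, with a median of 0.20, and Kdr, the main VEGF receptor, was 0.31 lower (adjusted p = 0.296). Over all genes tested, 0.119% rose. Both lists were chosen with earlier results of these data known, so their counts are a description.

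The largest rises were of 6 probes at background in all controls or in all but 1. Vmn2r28, a pheromone receptor of the vomeronasal organ, stood at 6.43, 6.43, 5.79 and 6.42 in controls, all at background, and at 10.34, 9.33, 10.88 and 9.54 in peripubertal ovaries. That is at least 9.12-fold higher (adjusted p = 0.0161), computed against the lowest signal that counts as above background. Svs3a, a protein of seminal vesicle fluid, was at least 2.85-fold higher (adjusted p = 0.0439), with 8.85, 8.15, 8.69 and 7.68 in P1 to P4. Cd300ld4, a CD300-family receptor of myeloid cells, was at least 3.44-fold higher (adjusted p = 0.0418) in P1 and P2, the samples with a value. The clone A430106G13Rik was at least 5.36-fold higher, and the clone A230038B01Rik and the probe A_55_P2053502, above background in 1 control each, rose by 2.75 and 2.79 on the log2 scale. These 6 probes are among the 8 rises tested only through the peripubertal samples in which they are high, and Vmn2r28, Svs3a and Cd300ld4 were above background in 0 of 4 control and 0 of 4 early-life samples.

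These 6 probes lie together on the array. The array has 532 rows and 85 columns of spots, and the 6 sit in rows 524 to 526, at columns 19, 19, 42, 49, 76 and 76. Of the 22 rises, 13 (59.1%) lie in the last 40 rows, which hold 6.00% of the genes tested; Abi1, Erp27, Sntb1, Ptprb, Creb3l2, Fam135a and Ccng1 are the others. Of the 31 falls, 2 (6.45%) lie there. These positions were looked at after the values were seen. Outside the last 40 rows and first 3 columns lie 9 of the 22 rises and 22 of the 31 falls. With those rows and columns left out, 13 genes passed, 2 higher (Wnk1 and Evi2a) and 11 lower. Of these 13, 12 are among the 53, so most calls outside that region also missed the threshold in that fit. Dvl3, in row 495, was left out with those rows.

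**Figure D2:**
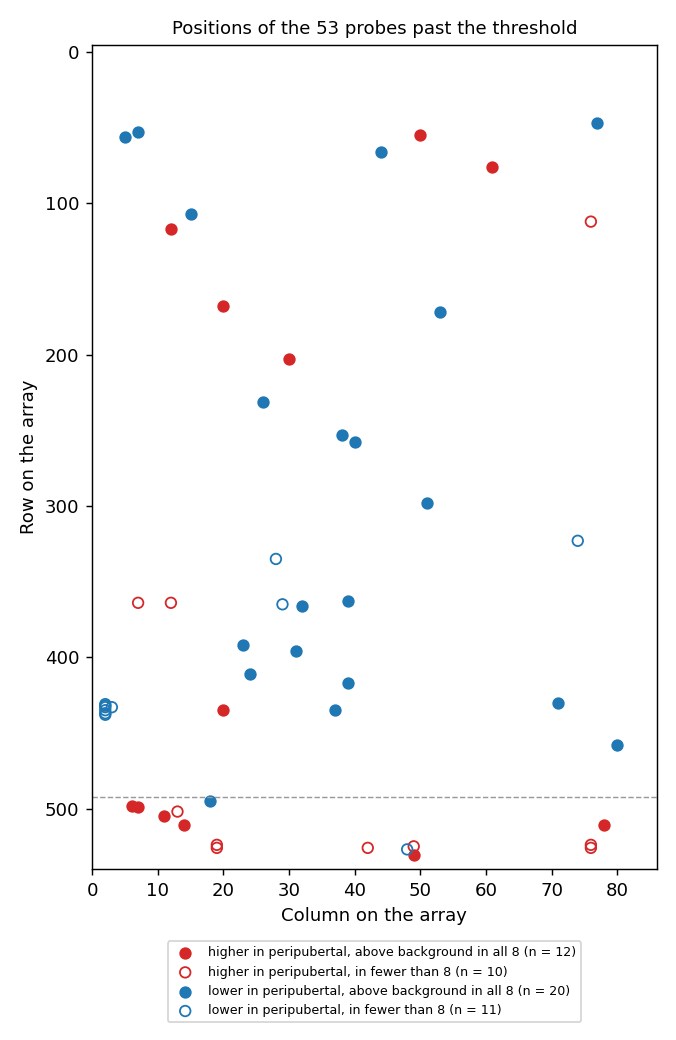
Row and column on the array of the 53 probes that passed the threshold, red for higher and blue for lower in peripubertal ovaries; filled circles are probes above background in all 8 samples and open circles the rest, and the dashed line marks the last 40 rows. Open red circles gather at rows 524 to 526 and open blue circles at the left edge near row 435, while filled blue circles are spread over the array.

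Neighbouring spots of other genes were bright there too, mostly in the peripubertal arrays. The 9 rows from row 520 on hold 194 spots that were above background in no control sample, a choice that keeps them dim on the control arrays. On the array of P1 and P2, 18 of the 194 (9.28%) exceeded a raw intensity of 250 units in both dyes, and on the array of P3 and P4, 22 (11.3%) did; on the early-life arrays 0 did. Over the rest of the array the shares of such spots were 0.748% and 0.598%. Counted without that choice, 13 and 16 of the 626 spots in these rows exceeded 250 units in both dyes of only the first or only the second peripubertal array and were above background on no other array, and 3 did so on the array of C3 and C4, 0 on that of C1 and C2 and 0 on each early-life array. A spot in row 526 at column 40, read 458 and 424 units in C3 and C4 and 53.2 and 61.9 in C1 and C2. Of the 194 dim spots, only 4 were bright on both peripubertal arrays, those of Vmn2r28, Svs3a, Cd300ld4 and A430106G13Rik, and all 4 are among the 53. In the 18 and 22 bright spots the Cy5 intensity was 0.945 and 0.935 times that of Cy3 at the median, whereas in spots above background in all 12 samples it was 1.78 and 2.50 times that of Cy3 on the same arrays. Vmn2r28 read 829, 714, 1338 and 1286 raw units in P1 to P4 and 34.2 to 60.8 in the controls, and Slc16a14, a transporter gene whose spot lies in row 524 at column 62, read 47.9 and 69 in P1 and P2 but 1975 and 1982 in P3 and P4. The part of array position in the rises was not tested.

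**Figure D3:**
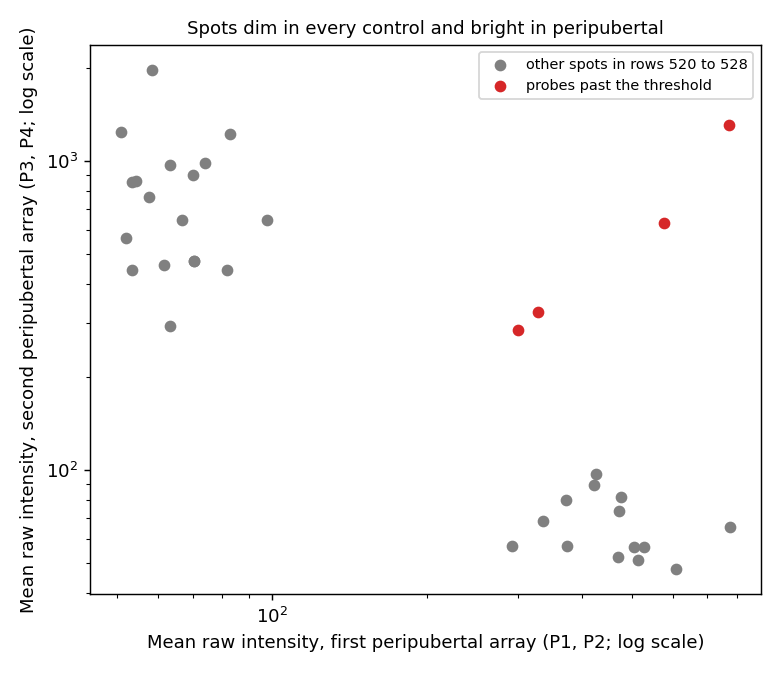
Mean raw intensity of the spots in the 9 rows from row 520 on that no control sample showed above background and that exceeded 250 units in both dyes of at least 1 peripubertal array, on the array of P1 and P2 (x axis, log scale) against the array of P3 and P4 (y axis, log scale); red marks the probes past the threshold. Grey spots are bright on 1 array and near background on the other, and the 4 red spots are bright on both.

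A further group of falls came from probes that were above background in the controls only. In 8 of the 31 falls no peripubertal sample was above background. These 8 were tested only through the controls. Of the 31 falls, 7 (22.6%) lie in columns 1 to 3 of 8 neighbouring rows near row 435, where 12 of the 18559 tested genes (0.0647%) lie. Cldn34b4, a claudin-family gene, read 7.38, 7.30, 7.84 and 7.60 in controls and 6.69, 6.73, 6.26 and 6.19 in peripubertal ovaries, so that it was at least 1.5-fold lower. Olfr1357, an odorant receptor, was at least 1.30-fold lower, and Wdcp, a WD-repeat protein above background in 2 peripubertal samples, fell by 0.93. Mrgpra1, a receptor of sensory neurons in row 527, was at least 1.28-fold lower, and Stfa2l1, a stefin-family inhibitor of cysteine proteases in row 323, at least 1.30-fold lower. Wdcp, above background in all early-life samples, differed from them by -0.04; for the other 4 genes no early-life sample was above background, and no difference is given. The part of array position in these falls was not tested.

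For 7 of the 53 genes another probe, elsewhere on the array, also passed the filter, and none of these showed a difference of the same size. The other Paip1 probe differed by 0.03 (SE 0.10), against -1.23 at the probe printed above, and the other Ptprb probe by 0.19 (SE 0.12), against 1.21. The other probes of Hnrnpul1 (-0.19), Kdm7a (0.17), Lpcat1 (-0.14) and Sntb1 (0.08) kept the sign, and that of Xpo7 (0.21) had the opposite one. In sum 5 of 7 shared the direction, and 0 of 7 did so with an unadjusted p under 0.05 in limma. The other probes of Paip1, Ptprb, Xpo7 and Hnrnpul1 were dimmer, with mean log2 levels of 7.65, 7.54, 7.48 and 8.005 in controls. The probes past the threshold stood at 10.75, 10.84, 9.52 and 10.58 there. For Lpcat1, Kdm7a and Sntb1 the control levels were closer, at 8.62, 7.38 and 7.01, against 9.14, 7.34 and 6.81. The part of probe level in the smaller differences was not tested. The probes of a gene can report different transcripts, and which ones they report was not tested.

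**Figure D4:**
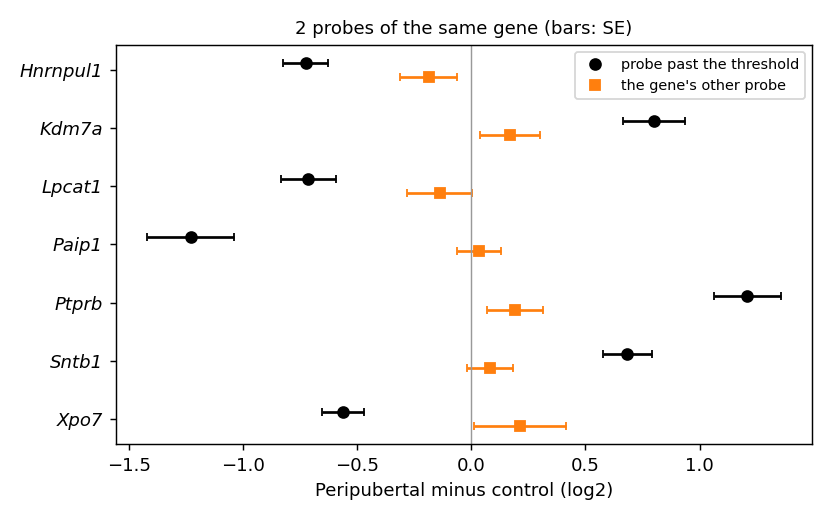
Peripubertal minus control difference on the log2 scale (x axis, bars: SE) at the probe past the threshold (black circles) and at the gene's other measured probe (orange squares) for 7 genes. Every orange square lies nearer to 0 than the black circle of its gene, and those of Paip1 and Xpo7 are on the other side of 0.

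The genes of vitamin D signalling and of ovarian hormone action gave no call. Of 16 measured genes of vitamin D signalling and metabolism, 0 rose and 0 fell, with a median difference of 0.13. Vdr read 8.27, 7.78, 8.33 and 8.49 in controls and 8.72, 8.11, 8.40 and 8.95 in peripubertal ovaries, which overlap, and the difference was 0.33 (SE 0.26, adjusted p = 0.693). Cyp27b1 differed by -0.02 (SE 0.07), near background in both groups. The Cyp24a1 probe was above background in 0 of 12 samples, so no level of this target was measured. Of the calcium-handling genes that the hormone induces in gut and kidney, Calb1, calbindin, had a mean log2 level of 8.09 ± 0.95 (SD, n = 4) in controls and 7.03 ± 0.11 (SD, n = 4) in peripubertal ovaries. The Calb1 groups did not overlap, the difference was -1.06 (SE 1.00, adjusted p = 0.740), and against the early-life arrays it was -2.89. S100g, another calbindin, differed by 0.24 (SE 1.39) and the calcium channel Trpv6 by 0.13 (SE 0.20). Among the partners and coactivators of the receptor, Rxrg was 0.25 higher (adjusted p = 0.377) and Ncoa1 0.22 higher (adjusted p = 0.491).

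Some steroid synthesis genes varied widely within each group, while the mean of the list varied less. The mean log2 level of 9 genes with a value in every sample ranged from 14.82 to 14.95 in controls. It ranged from 14.63 to 15.20 in peripubertal ovaries. Of 18 measured genes of steroid synthesis 0 passed, with a median of 0.20. Star, which carries cholesterol into mitochondria, ranged from 12.73 to 16.51 in controls and from 12.86 to 15.37 in peripubertal ovaries, and differed by -0.91 with an SE of 1.18. Cyp17a1, the enzyme of androgen synthesis in theca cells, differed by 1.13 (SE 0.95) and Cyp19a1, the aromatase of granulosa cells, by 0.26 (SE 1.00). Cyp11a1, which makes pregnenolone, differed by 0.34 (SE 0.33). Akr1c18, which inactivates progesterone as the corpus luteum regresses, was 4.20 higher (SE 1.35, adjusted p = 0.319), with 14.10, 15.52 and 16.40 in P2 to P4 and 11.01 and 11.32 in C1 and C2, where 3 of the 8 samples have no value. In sterol synthesis and uptake 0 of 19 passed, 17 of 19 differences were below 0 and the median was -0.22; Insig1, which holds back sterol synthesis, was 1.14 lower (adjusted p = 0.205). Medians were 0.52 for steroid synthesis and 0.31 for sterol synthesis and uptake against the early-life arrays, the latter of opposite sign, and Star differed by 1.24 (SE 1.26), also of opposite sign.

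No hormone receptor or follicle signal passed. Lhcgr, the receptor of luteinizing hormone, differed by -0.29 (SE 0.60), and Fshr, that of follicle-stimulating hormone, by 0.04 (SE 0.32). The estrogen receptors Esr1 and Esr2 differed by -0.08 (SE 0.48) and -0.15 (SE 0.22). Pgr, the progesterone receptor, was above background in 1 of 4 samples of either group, so no difference is given. Amh, the hormone of growing follicles, differed by -0.33 (SE 0.26), Inha, the inhibin alpha subunit, by -0.13 (SE 0.18) and Gdf9, a growth factor of the oocyte, by 0.23 (SE 0.30). In the list of AMH, inhibin, activin and BMP genes 0 of 24 passed, with 12 differences on each side of 0. The receptors Acvr2b, for activin, and Bmpr1a, for bone morphogenetic proteins, were 0.38 (SE 0.11, adjusted p = 0.256) and 0.34 (SE 0.09, adjusted p = 0.226) higher, and the thyroid hormone receptor Thrb was 0.31 higher (SE 0.11, adjusted p = 0.330); the groups did not overlap for Acvr2b and Thrb. The differences from the early-life arrays were -0.15 for Acvr2b, 0.20 for Bmpr1a and 0.41 for Thrb. In the insulin and IGF list 0 of 20 passed. Irs1, an adaptor of the insulin receptor, was 0.74 higher (adjusted p = 0.185) with the groups apart but differed by less than 0.01 from the early-life arrays. Igf1, with 2 peripubertal values, was 0.58 lower (adjusted p = 0.418) and differed by -0.05 from the early-life arrays.

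The cell cycle genes were low as a group without a call. Of 25 measured, 0 passed, 24 differences were below 0, and the median was -0.38, against 0.01 over all genes. In 8 of 25 (32%) the peripubertal values lay under all controls, against 5.32% of all genes. Among these, Cdc20 had 2 peripubertal values, Mcm3 had 3 control values, and Cenpe had 2 control and 3 peripubertal values. This list too was chosen with earlier results of these data known, so its shares are a description. Ccne1, the cyclin that starts DNA replication, went from 10.58, 10.77, 10.47 and 10.85 to 9.85, 9.99, 9.66 and 9.96, a difference of -0.80 (SE 0.16, adjusted p = 0.0897). Cdk1, the kinase of mitosis, was 0.61 lower (adjusted p = 0.262) and Top2a, the topoisomerase of dividing cells, 0.44 lower (adjusted p = 0.228). Against the early-life arrays the list's median was -0.09.

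**Figure D5:**
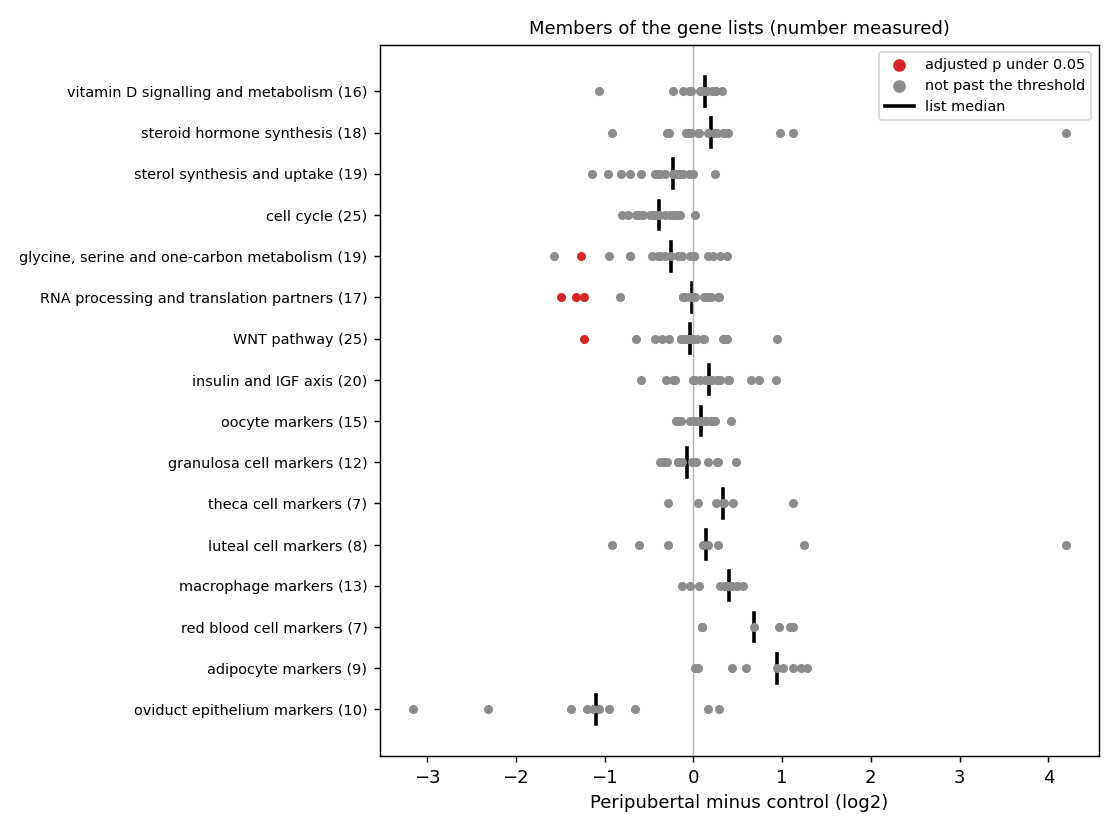
Peripubertal minus control differences on the log2 scale (x axis) of the measured members of 16 gene lists, with the number measured in brackets; each point is a gene, red where the adjusted p is under 0.05, and the black bar is the list's median. The cell cycle members lie left of 0 in 24 of 25 cases, and the 5 red points are Gcat, Dvl3, Snd1, Prcc and Paip1, each apart from the median of its list.

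Markers of tissues around the ovary and of its other cells varied between samples. The mean log2 level of 7 oviduct genes with a value in every sample ranged from 9.14 to 11.27 in controls and from 8.74 to 9.57 in peripubertal ovaries, beside 10.07 to 13.25 in the early-life samples, and 0 of 10 measured oviduct genes passed, with a median difference of -1.09. Foxj1, the master factor of motile cilia, read 11.85, 8.42, 8.0 and 11.88 in C1 to C4 and 7.10, 9.78, 7.10 and 6.92 in P1 to P4. Fat cell genes ranged from 9.25 to 11.09 in controls and from 9.99 to 12.10 in peripubertal ovaries, with 9 of 9 differences above 0 and a median of 0.95, and red blood cell genes had a median of 0.68 with 7 of 7 above 0. Both lists turned against the early-life arrays, with medians of -1.14 for fat cell genes, which ranged from 11.50 to 13.60 there, and -0.21 for red blood cell genes. Macrophage genes had a median of 0.40, with 0 of 13 passed; Itgam was 0.56 higher (adjusted p = 0.264). The macrophage median was 1.06 against the early-life arrays, where 4 of 13 passed, among them C1qa (1.36) and Adgre1 (1.19). Of all 18559 genes, 500 passed against the early-life arrays. The oviduct median was -2.92 there. The medians of peripubertal minus control were 0.09 for 15 oocyte genes, -0.07 for 12 granulosa genes, 0.34 for 7 theca genes and 0.14 for 8 luteal genes, and 0 of these passed. The part of sampled tissue in the differences above was not tested.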

How the data were processed

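Labelled RNA of 12 ovaries was read on 6 arrays. The deposited scanner files, made per the file headers with Agilent Feature Extraction 11.0.1.1, hold the mean and the local background intensity of each spot, not normalized; probe positions are on build mm9. The deposited value table holds log2 values whose making is not stated, and it was used only to check sample names.

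With R 4.3.3 and limma 3.58.1 (statmod 1.5.0; the R package data.table, version 1.17.8), background correction used normexp (offset 50), dyes were balanced by loess within arrays, arrays were aligned by Aquantile, and the channels were then analysed separately. Spots set aside as outliers by the software were left out. Of 39429 probes, 23791 passed the software's background test in 4 or more of 12 samples and had at least 2 values per group; the brightest probe stood for each of 18559 genes. Names came from RefSeq by accession (27234 probes), symbol (3576) or synonym (565), and 8054 probes keep the file's name. All 12 samples were fitted with dye as covariate and array as random block (correlation 0.288), at Benjamini-Hochberg adjusted p under 0.05. The script was tested on simulated data. A gene with no sample of a group above background has a lower bound of its fold, set against the lowest signal well above background in each sample. The number of arrays limits precision.

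Every gene past the threshold with a symbol is named, up to 12 rises and 12 falls with at least 3 values per group by sample, with a fixed set of vitamin D and ovarian genes and up to 3 members of each of 33 lists. Members, lists and the rule were chosen with earlier results of these data known. Alternatives are listed in the closing section. Same-numbered samples shared a number and the dye that goes with it, and their correlations are given there.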

Additional observations from a re-analysis of the deposited data

Results flagged for a closer look

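In groups of 4 samples with all values, 267 groups of the named genes were examined for 1 sample far from the other 3, by Dixon's ratio. Chance flags about 1 in 20. Of the 267 groups 15 were flagged, a share near that of chance, so the flags below are a description. C1 stood apart in 4 genes that fell: it was the highest control for Snd1 (11.97, others 11.63 to 11.68), Prcc (10.87, others 10.21 to 10.30) and Prm1 (8.78, others 8.23 to 8.32) and the lowest for Paip1 (10.34, others 10.85 to 10.93). C3 was the lowest control for Svs3a (5.77) and Vmn2r28 (5.79), both at background, and P1 the lowest peripubertal sample for the transcript ENSMUST00000032858 (6.83).

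Among genes that did not pass, C2 was the highest control for Cyp17a1 (14.61, others 11.63 to 11.97) and the lowest for Btc (6.97), C4 was the lowest for Tcf21 (11.66, others 12.63 to 12.80), and C3 the lowest for the fat cell gene Cfd (9.19, others 12.03 to 12.50). P2 was the highest peripubertal sample for Foxj1 (9.78, others 6.92 to 7.10) and for Thrb (9.55), and P1 was the highest for the luteal marker Parm1 (13.34, others 11.60 to 11.86) and the lowest for Bcl2l11 (7.03). What set these samples apart was not tested.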

How the results depend on the processing

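The count of 53 genes stayed within 1.5 times under 4 alternatives: no background subtraction (51), quantile normalization (48), trend and robust variance (38) and the software's processed signals (69, of which 42 or 60.9% were higher, against 41.5% of the 53). It moved further under the rest. It was 0 with loess within arrays only, where 682 genes had an unadjusted p under 0.05 in limma, and 0 with only the 8 samples, where 1742 had; it was 1 (Vmn2r28) with the samples of an array averaged. It was 21 with no filter on dim probes (28.6% higher), 15 with probes above background in all 8 samples (33.3% higher), 15 with genes valued in all 8 (20% higher), 26 with outlier spots kept (26.9% higher) and 20 with the mean over probes (30% higher). It was 81 without the dye covariate and 154 without the array block. With control and early-life arrays exchanged it was 500, of which 394 or 78.8% were higher, and 30 of the 53 were among them; the median over all genes was then 0.03. In that setting 7 genes changed sign: Mrgpra1 (0.12), Cldn34b4 (0.16), Olfr1357 (0.0343), Xpo7 (0.0575), Creb3l2 (-0.50), Fam135a (-0.0279) and ENSMUST00000172100 (0.0808). For Mrgpra1, Cldn34b4, Olfr1357 and ENSMUST00000172100 both groups then lie at background, so these values have no direction. The values of Xpo7 (SE 0.09) and Fam135a (SE 0.14) were smaller than their SE, so no direction is read from them. Left-out samples gave 5 to 30; 4 of the 53 passed in every such fit and 16 in none. Of alternatives chosen after seeing the data, leaving out the last 40 rows and first 3 columns gave 13, and asking for 3 values in both groups gave 18. With the replicate block the count was 14, of which 13 are among the 53; same-numbered control and peripubertal samples correlated by -0.28 to 0.07 in their deviations, and no peripubertal sample correlated best with the control of its own number. The causes of these moves were not tested.

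Limits are few arrays, a slide that coincides with diet, 2 samples on each array, doubtful names of the control and early-life samples, and missing values from set-aside spots. Genes near background have only bounds.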
